A study of Sus scrofa with 2 samples.

Results

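The genes described here are those of the lysosome, of sphingomyelin breakdown and of autophagy that were measured in the biceps femoris muscle of cloned piglets. A gene was a member if its symbol was SMPDL3A or if its protein description contained a term such as cathepsin, lysosom-, V-type proton ATPase, sphingomyelin, autophagy, sequestosome, beclin, glucosylceramidase, saposin or FAM134. This gave 83 of the 12535 genes with at least 1 read. The rule matches descriptions and symbols, but it was written with earlier results of these data known. SMPDL3A was named in it with its value known. By description the 83 genes fell into 30 hydrolases, 20 genes of the proton pump, 13 membrane proteins and 20 autophagy genes.

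The lysosome is the acid compartment in which cells degrade proteins, lipids and sugars. Its hydrolases (cathepsins, glycosidases, lipases and sphingomyelinases) need a low pH, which the V-ATPase maintains by pumping protons with a cytosolic V1 sector and a membrane-bound V0 sector. Heavily glycosylated membrane proteins such as LAMP1 and LAMP2 line the organelle. In autophagy the ATG proteins build a double membrane around cargo that receptors such as SQSTM1 (p62) or, for the endoplasmic reticulum, the FAM134 proteins (now named RETREG) have bound, and the vesicle then fuses with the lysosome. Skeletal muscle uses this route to turn over proteins and organelles and is damaged when LAMP2 or acid alpha-glucosidase is lost.

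The study compared cloned piglets, all made by somatic cell nuclear transfer and delivered by caesarean section, that were abnormal or normal in phenotype. The abnormal cloned group (labelled developmental failure) comprised 3 newborn piglets with an enlarged tongue, trouble in standing and walking, or a navel defect. The normal cloned group comprised 4 piglets by the methods of the study and 3 by the sample labels. Muscle was taken on Day 1 after birth, and the RNA of each group was pooled into 1 library. All 3 abnormal and 2 of the normal piglets descended from Day 35 embryonic fibroblasts of a male Large White pig, whereas the other 2 normal piglets descended from ear fibroblasts of another male. The donor of 2 of the normal piglets and the phenotype therefore cannot be told apart. Since each group is a single pool, no difference below has a replicate check.

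The libraries held 6.38 M (abnormal) and 6.52 M (normal) unique reads, counted as the sum over the genes of each table. This sum is the total by which the RPKM are scaled, and the study's own number of unique reads per group is larger. The 83 members took 18410 reads (0.289%) of the abnormal and 12600 reads (0.193%) of the normal library. Levels are RPKM, reads per kb of transcript, scaled to a fixed library size. The log2 ratio is that of RPKM in the abnormal over the normal library, and its 95% interval covers counting error alone. A gene was called when an Audic-Claverie test on the reads of these libraries gave a false discovery rate (FDR) of at most 0.001 over all 12535 genes and the log2 ratio was at least 1 in size. The median log2 ratio of all genes was 0.35, and the 13 mitochondrial transcripts took 36.0% of the abnormal and 46.1% of the normal library. Ratios rescaled without these transcripts are among those given below.

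Among the 83 members, 17 were called higher in the abnormal library (20.5%, against 12.0% of all genes) and 2 were called lower (against 1.45% of all genes). The other 64 were not called. Without SMPDL3A, which the rule names, 16 of 82 were called higher (19.5%). RPKM was higher in the abnormal library for 60 members and lower for 23, where 66.0% of all genes were higher. The median log2 ratio of the members was 0.45. Both libraries had at least 10 reads for 61 of the 83 members, and among these 13 were called higher and 1 lower, beside 18.2% and 2.07% of the 7493 genes with that depth. Against the median of those genes, 33 of the 61 members lay above and 28 below. The members were thus spread on both sides of the general shift, and the groups differed in where they lay. When the abnormal library was rescaled, the balance of members called higher to lower moved from 17 to 2 towards 12 to 5 (median ratio of genes), 12 to 7 (TMM factors), 12 to 5 (totals without mitochondrial transcripts) and 11 to 6 (corrected for transcript length). The calls over all genes moved as well, from 12.0% to 6.48%, 5.99%, 7.87% and 6.09% called higher and from 1.45% to 3.97%, 4.37%, 2.94% and 3.68% called lower. These rescalings took 0.36, 0.39, 0.25 and, depending on length, 0.0099 to 0.76 off the log2 ratio of a gene with reads in both libraries.

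**Figure D1:**
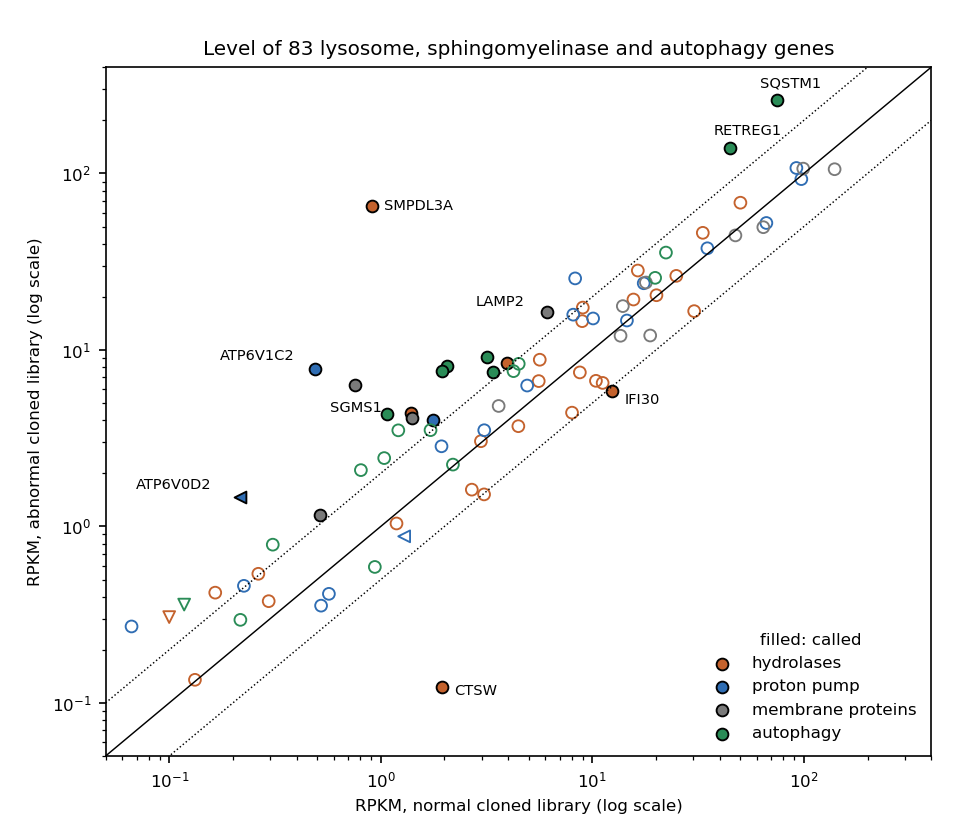
RPKM of the 83 members in the normal cloned library (horizontal, log scale) and the abnormal cloned library (vertical, log scale). Each symbol is 1 gene, coloured by group and filled where called; triangles are genes with 0 reads in 1 library, drawn at the RPKM of 3 reads. The solid line marks equal RPKM and the dotted lines a 2-fold difference. SMPDL3A stands furthest from the line among genes read in both libraries, at 65.6 against 0.905 RPKM, and SQSTM1 is the highest in the abnormal library at 262 RPKM.

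The autophagy genes were the group with the most calls for its size. Of 20 genes, 7 were called higher (35%, against 12.0% of all genes) and 0 lower. Of the called genes, SQSTM1, RETREG1 and RETREG3 entered by the terms sequestosome and FAM134. The rule was written with earlier results of these data known, so the share is given as a description. RPKM was higher in the abnormal library for 18 of the 20, where 66.0% of all genes were higher. The median log2 ratio of the group was 1.19, and it stayed at 0.83, 0.80, 0.94 and 0.83 under the rescalings named above. The 14 autophagy genes that had 10 or more reads in each library all lay above the median of all genes of that depth. Of these 14, 7 were called higher, beside 18.2% of all genes of that depth. These counts hold for genes whose descriptions matched the rule. In a list of autophagy genes under other names, given below, 3 of 19 were called higher (15.8%). Autophagy genes outside the rule lay on both sides of the median at that depth (0.36). Of the ATG8 family and its proteases, GABARAP (log2 ratio -0.26), GABARAPL2 (0.15), ATG4A (0.31) and ATG4D (0.33) lay below it. GABARAPL1 (1.93), MAP1LC3A (0.75) and MAP1LC3B (1.09) lay above it.

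A pair of cargo receptors, SQSTM1 and RETREG1, had the highest levels of the group. The entry described as sequestosome-1-like (reference symbol SQSTM1, chromosome 2, 68101464 to 68112459, Sscrofa9) encodes the receptor that ties ubiquitinated cargo to the forming autophagosome and is itself degraded with it. It had 3266 reads (262 RPKM) in the abnormal library and 949 reads (74.6 RPKM) in the normal library. By RPKM it ranked 1 of 83 members among the abnormal levels and 5 among the normal levels. Its log2 ratio was 1.81 (95% interval 1.71 to 1.92, FDR at most 1e-300), which is 1.46 above the median of all genes. Reads covered 99.85% (abnormal) and 96.42% (normal) of the transcript, so its signal was not confined to a short stretch.

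The FAM134 proteins are receptors that hand endoplasmic reticulum to the autophagosome. The FAM134B-like entry (RETREG1, chromosome 16, 5155668 to 5356469) had 1527 reads (140 RPKM) in the abnormal library and 498 reads (44.7 RPKM) in the normal library, a log2 ratio of 1.65 (1.502 to 1.793, FDR 9.29e-124). It was the second most abundant member in the abnormal library. The FAM134C-like entry (RETREG3) had 69 reads (7.59 RPKM) against 18 reads (1.94 RPKM), a log2 ratio of 1.97 (1.23 to 2.71, FDR 1.37e-07). FAM134A (RETREG2) had 91 reads (8.34 RPKM) against 50 reads (4.49 RPKM), a log2 ratio of 0.89 (0.40 to 1.39), and was not called at an FDR of 0.00180. All 3 family members with enough reads were thus higher in the abnormal library, RETREG2 short of the threshold. A partial FAM134A-like entry had 0 reads against 1. The RETREG1 entry overlaps that of ZNF622 on the same strand, which had 95 against 87 reads.

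In the machinery that builds the autophagosome, 4 genes were called. ATG13, a subunit of the ULK1 kinase complex that starts autophagy, had 104 reads (8.10 RPKM) in the abnormal and 27 reads (2.06 RPKM) in the normal library, a log2 ratio of 1.98 (1.37 to 2.58, FDR 3.33e-11). ATG2B, which carries lipids into the growing membrane, had 193 reads (4.32 RPKM) against 49 reads (1.07 RPKM), a log2 ratio of 2.01 (1.56 to 2.46, FDR 8.05e-21). ATG16L1, the part of the conjugating enzyme that places ATG8 proteins on the membrane, had 107 reads (9.12 RPKM) against 38 reads (3.17 RPKM), a log2 ratio of 1.52 (0.99 to 2.06, FDR 3.13e-08). These genes, SQSTM1, RETREG1 and RETREG3 were called under each of the 4 rescalings. The entry of AMBRA1, a regulator of the beclin 1 complex, was called at 89 against 41 reads (log2 ratio 1.15, FDR 9.10e-05) but under none of them.

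ATG9A, the membrane protein of the vesicles that seed the autophagosome, was the most abundant ATG gene. It had 685 reads (35.6 RPKM) in the abnormal and 438 reads (22.3 RPKM) in the normal library, and its log2 ratio of 0.68 (0.50 to 0.85, FDR 1.33e-13) lay below the fold threshold. The conjugation genes ATG3 (253 against 200 reads, log2 ratio 0.37) and ATG12 (56 against 32 reads, 0.84) were not called. Higher ratios in genes with few reads were not called either, as in RUBCN (38 against 15 reads, 1.37), ATG14 (23 against 10 reads, 1.23), DRAM1 (17 against 6 reads, 1.53) and DRAM2 (26 against 13 reads, 1.03). At this depth nothing could be resolved for BECN1 (4 against 3 reads), ATG5 (9 and 9 reads) or ATG16L2 (8 against 13 reads). The machinery was thus uneven, with called genes beside genes whose counts were too low to tell.

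**Figure D2:**
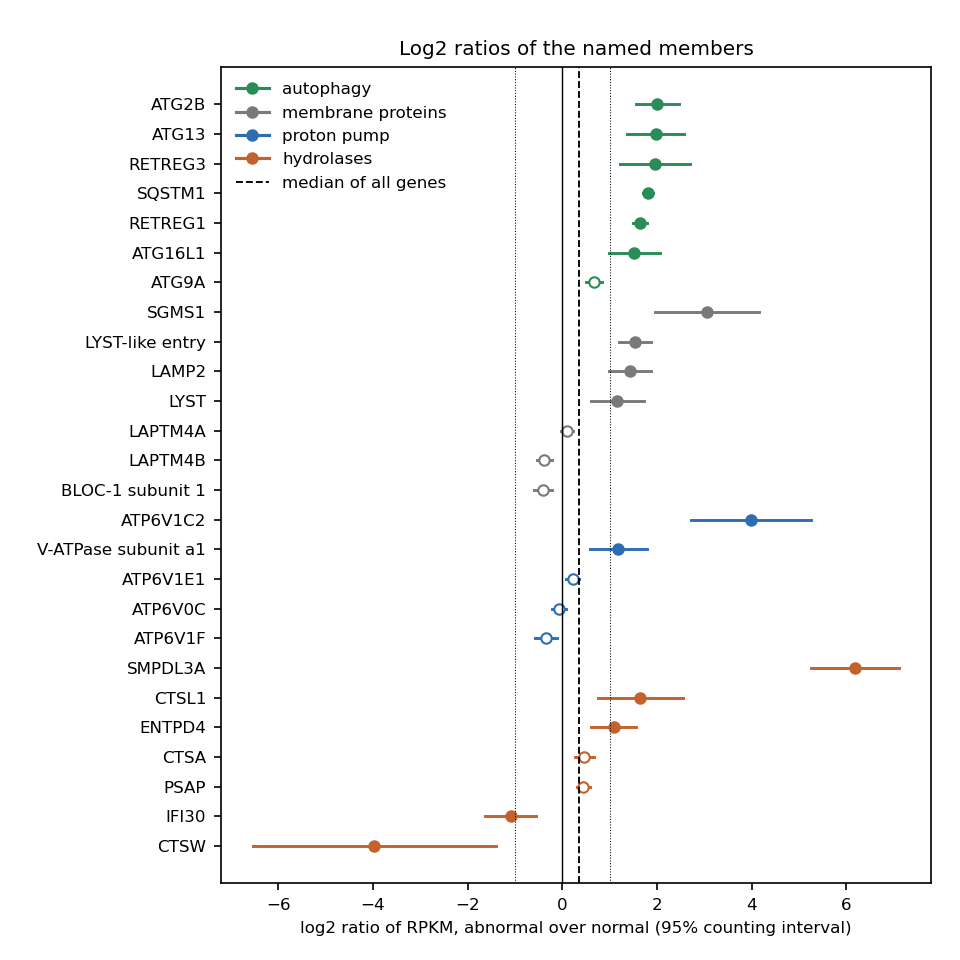
Log2 ratio of RPKM (abnormal over normal library) of 26 of the 27 members named by a set rule, grouped by role, with 95% counting intervals as bars. ATP6V0D2, with 0 reads in the normal library, has no interval and is left out. Filled points were called; the dashed line is the median of all genes (0.35) and the dotted lines a log2 ratio of 1 in size. The autophagy genes drawn all lie above 0.35, but most of them were named because they were called higher. Some members of that group that are not drawn lie below it, such as ATG5 (0.03) and ATG16L2 (-0.67). The hydrolases drawn run from -3.97 to 6.18.

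The hydrolases as a group did not share a direction. Of 30 genes, 3 were called higher (10%, against 12.0% of all genes) and 2 lower, 18 had a higher and 12 a lower RPKM, and the median log2 ratio was 0.05, which turned to -0.31, -0.34, -0.19 and -0.24 under the rescalings. Of the 22 with at least 10 reads in both libraries, 8 lay above and 14 below the median of all genes of that depth. After rescaling 1 hydrolase was called higher, SMPDL3A, which the rule names, and 5 or 6 were called lower, where the lower calls among all genes rose to between 2.94% and 4.37%.

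SMPDL3A (chromosome 1, 41352453 to 41370661) encodes an acid sphingomyelinase-like phosphodiesterase that is secreted and found in lysosomes and that cleaves nucleotides. It is a member by name, written into the rule with its value known, so its difference is given as a description. It had 639 reads (65.6 RPKM, covering 90.7% of the transcript) in the abnormal library and 9 reads (0.905 RPKM, covering 18.34%) in the normal library. That is 72.5-fold, a log2 ratio of 6.18 (5.25 to 7.11), and ranked first among the genes with reads in both libraries. By RPKM SMPDL3A was in place 8 of 83 among the abnormal levels and in place 65 among the normal levels.

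The enzymes related to SMPDL3A did not share this difference. The entry of SMPD1, the acid sphingomyelinase of the lysosome, had 166 reads (20.4 RPKM) in the abnormal and 167 reads (20.1 RPKM) in the normal library, a log2 ratio of 0.02 (-0.29 to 0.33). SMPDL3A was thus at 3.21 times the RPKM of SMPD1 in the abnormal library, and SMPD1 at 22.2 times that of SMPDL3A in the normal library. SMPDL3B, the closest relative, had 116 reads (8.80 RPKM) against 76 reads (5.64 RPKM), a log2 ratio of 0.64 (0.23 to 1.06). Of the neutral sphingomyelinases, SMPD4 had 253 against 159 reads (0.70), SMPD2 34 against 42 reads (-0.27) and SMPD3 5 against 4 reads. Of these 6 genes SMPDL3A was the 1 that was called.

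**Figure D3:**
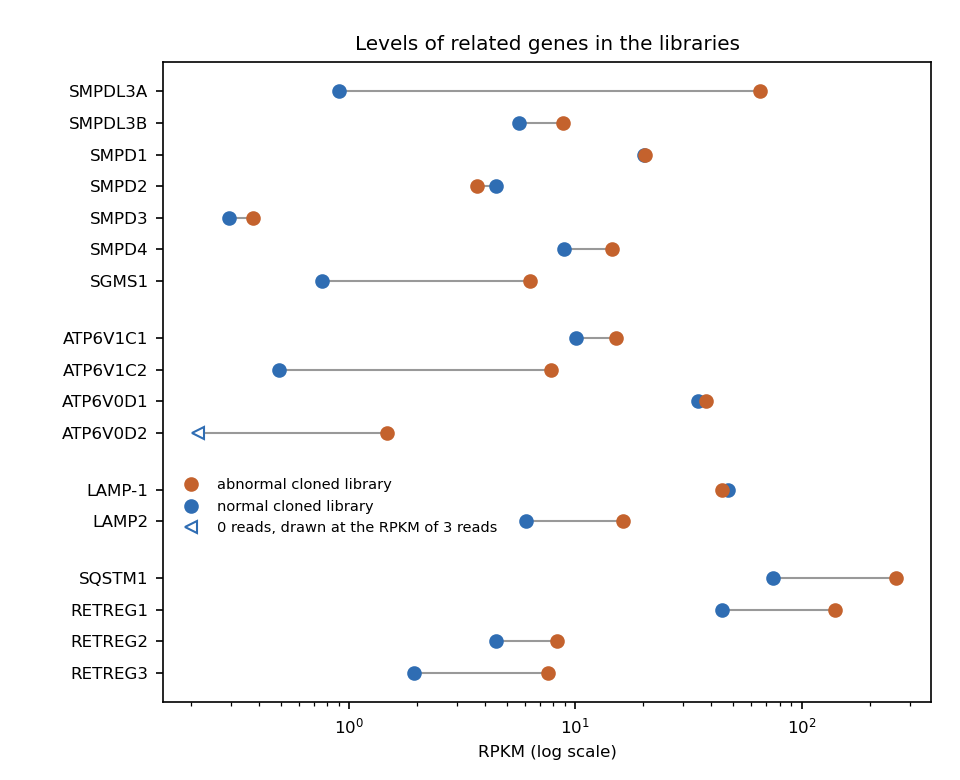
RPKM (log scale) of related genes in the abnormal (orange) and normal (blue) cloned library, 1 pair of points per gene, joined by a line. The open triangle marks 0 reads, drawn at the RPKM of 3 reads. SMPDL3A, ATP6V1C2 and ATP6V0D2 differ widely between the libraries, while their relatives SMPD1, ATP6V1C1 and ATP6V0D1 lie close together, as at 20.4 and 20.1 RPKM for SMPD1. LAMP-1 likewise lies close together, and LAMP2 is higher in the abnormal library.

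The abundant genes of the hydrolase group differed little. PSAP, grouped here by its description, is no hydrolase itself but the precursor of the saposins that help enzymes reach sphingolipids. It had 953 reads (68.3 RPKM) in the abnormal and 715 reads (50.1 RPKM) in the normal library, a log2 ratio of 0.45 (0.31 to 0.59). The entry of CTSA, the lysosomal protective protein that stabilises glycosidases, had 435 reads (46.1 RPKM) against 321 reads (33.3 RPKM), a log2 ratio of 0.47 (0.26 to 0.68). Both lay near the median of all genes. CTSK (264 against 256 reads, 0.08), HEXA (221 against 183 reads, 0.30) and the acid alpha-glucosidase entry GAA (153 against 131 reads, 0.25) were not called. The acid phosphatase entry ACP2 (166 against 88 reads, 0.95) and the non-lysosomal glucosylceramidase GBA2 (553 against 329 reads, 0.78) lay under the fold threshold.

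Besides SMPDL3A, 2 hydrolases were called higher, and both lost the call under all 4 rescalings. ENTPD4, an apyrase of the Golgi and lysosome, had 108 reads (8.38 RPKM) in the abnormal and 52 reads (3.95 RPKM) in the normal library, a log2 ratio of 1.09 (0.61 to 1.56, FDR 3.27e-05). The cysteine protease listed as CTSL1 had 40 reads (4.37 RPKM) against 13 reads (1.39 RPKM), a log2 ratio of 1.65 (0.76 to 2.54, FDR 8.66e-04). Its reads covered 8.56% and 8.77% of the transcript, and the reference table names the same identifier CTSV, so the value is uncertain.

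The genes called lower were IFI30 and the cathepsin W-like entry. IFI30, a lysosomal thiol reductase of antigen-presenting cells and by its chemistry no hydrolase, had 39 reads (5.82 RPKM) in the abnormal and 85 reads (12.4 RPKM) in the normal library, a log2 ratio of -1.09 (-1.64 to -0.55, FDR 2.51e-04). The cathepsin W-like entry, a protease of cytotoxic lymphocytes, had 1 read against 16 reads (0.124 and 1.94 RPKM). Its log2 ratio of -3.97 had an interval from -6.53 to -1.41 (FDR 7.58e-04), and Fisher's exact test did not call it. Several more enzymes had lower levels without being called. CTSZ had 150 reads (16.6 RPKM) against 280 reads (30.3 RPKM), a log2 ratio of -0.87 (-1.16 to -0.58). The cathepsin S entry, whose protease trims the invariant chain for antigen presentation, had 42 against 78 reads (-0.86), PRCP 62 against 109 reads (-0.78) and the acid lipase LIPA 105 against 167 reads (-0.64). CTSZ, CTSS and PRCP were called lower under all 4 rescalings, and LIPA under TMM factors and the length correction.

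Markers of macrophages were mostly lower in the same library. Of 12 measured macrophage markers 9 had a lower and 3 a higher RPKM in the abnormal library, where 66.0% of all genes were higher. The 3 were CSF1R (log2 ratio 0.09), MRC1 (0.87) and ITGAM (0.62). The summed level of the 12 was 71.8 against 122 RPKM. C1QA (19.8 against 31.2 RPKM) and C1QC (17.3 against 35.8 RPKM) had the highest levels among them. C1QC alone was called, at 145 against 306 reads. None was at 0, and the levels ran from 0.122 to 19.8 RPKM in the abnormal and from 0.358 to 35.8 RPKM in the normal library. The part of these cells in the values of IFI30, CTSS and CTSZ was not tested, and in pooled tissue fewer cells of a type and less RNA per cell cannot be told apart. The 6 measured markers of other leukocytes summed to 5.97 against 8.12 RPKM and the 6 of skeletal muscle to 77208 against 70607 RPKM, with 0 of either called. Endothelial (44.1 against 41.8 RPKM, 4 markers), fibroblast (913 against 1033, 4 markers), red blood cell (480 against 694, 4 markers) and adipocyte markers (0.492 against 0.218, 3 markers) also held 0 called genes.

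Of the 20 genes of the proton pump, 3 were called higher (15%, near the 12.0% of all genes) and 0 lower. With at least 10 reads in both libraries it was 1 of 13, where 18.2% of all genes of that depth were called higher. RPKM was higher in the abnormal library for 16 and lower for 4. The median log2 ratio was 0.50 (0.40 with genes at 0 reads set to their bound), and 0.14, 0.11, 0.25 and 0.15 under the rescalings. The subunits with the highest levels differed little between the libraries. ATP6V1E1, a stalk subunit of V1, had 935 reads (107 RPKM) in the abnormal and 820 reads (92.2 RPKM) in the normal library. Its log2 ratio of 0.22 (0.09 to 0.36) was below the median of all genes and turned negative under each rescaling. ATP6V0C, the subunit that forms the proton-carrying ring, had 683 reads (92.9 RPKM) against 731 reads (97.3 RPKM), a log2 ratio of -0.07 (-0.22 to 0.08). ATP6V1F had 253 reads (52.4 RPKM) against 328 reads (66.5 RPKM), a log2 ratio of -0.34 (-0.58 to -0.11).

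The called pump genes included isoforms that are known from particular cell types such as kidney cells and osteoclasts. ATP6V1C2 (chromosome 3, 116602235 to 116652362), an alternative form of the C subunit that couples V1 to V0, had 78 reads (7.82 RPKM) in the abnormal and 5 reads (0.491 RPKM) in the normal library. That is 15.9-fold, a log2 ratio of 3.99 (2.73 to 5.26, FDR 4.31e-17). The common form ATP6V1C1 had 180 reads (15.1 RPKM) against 123 reads (10.1 RPKM), a log2 ratio of 0.58 (0.25 to 0.91). Of the summed RPKM of both forms, ATP6V1C2 thus made up 34.2% among the abnormal and 4.64% among the normal clones.

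The d subunit, which joins the V0 ring to the stalk, showed the same kind of pair at a lower level. ATP6V0D2 had 20 reads (1.47 RPKM) in the abnormal and 0 reads in the normal library, at least 6.81-fold higher when the normal library is set to 3 reads (FDR 9.09e-06). Its common form ATP6V0D1 had 393 reads (37.7 RPKM) against 373 reads (34.99 RPKM), a log2 ratio of 0.11 (-0.10 to 0.31). ATP6V0D2 was 3.75% of the summed RPKM of the pair in the abnormal library, so the common form remained far more abundant. Both ATP6V1C2 and ATP6V0D2 were called under all 4 rescalings. The third gene called, the entry of the a subunit isoform 1 (69 against 31 reads, log2 ratio 1.19, FDR 5.38e-04), was called under none. ATP6V1H (208 against 109 reads, 0.96) lay just under the fold threshold, and ATP6V1A had 4 against 1 reads.

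Of the 13 membrane proteins, 4 were called higher (30.8%, against 12.0% of all genes) and 0 lower, and 3, 3, 3 and 2 were called higher after the rescalings. With at least 10 reads in both libraries it was 3 of 12, where 18.2% of all genes of that depth were called higher. RPKM was higher for 8 of the 13 and lower for 5. The group was set by description and is wider than the lysosomal membrane, as it holds a Golgi enzyme and proteins of trafficking. Of its called genes LAMP2 alone is described as a membrane protein of the lysosome. The group's median log2 ratio of 0.35 moved to -0.01, -0.05, 0.10 and -0.07 under the rescalings. Sphingomyelin synthase 1 (entry with the reference symbol SGMS1, chromosome 14, 103817282 to 103909542), which makes sphingomyelin from ceramide in the Golgi, differed most. It had 57 reads (6.31 RPKM) in the abnormal and 7 reads (0.759 RPKM) in the normal library, 8.32-fold, a log2 ratio of 3.06 (1.95 to 4.16, FDR 4.11e-10). Its call stood under all 4 rescalings.

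LAMP2 (chromosome X, 95827889 to 95864680), a lysosomal membrane glycoprotein needed for the fusion of autophagosomes, had 147 reads (16.3 RPKM) in the abnormal and 56 reads (6.08 RPKM) in the normal library. Its log2 ratio was 1.42 (0.98 to 1.87, FDR 4.45e-10), and it was called under all 4 rescalings. Its relative LAMP-1 had 553 reads (44.6 RPKM) against 602 reads (47.5 RPKM), a log2 ratio of -0.09 (-0.26 to 0.07). The intervals of these related genes do not overlap, and LAMP2 made up 26.8% (abnormal) and 11.3% (normal) of their summed RPKM.

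The other called genes of this group encode very large proteins of the BEACH family. LYST, which controls lysosome size, had 79 reads (1.16 RPKM) in the abnormal and 36 reads (0.517 RPKM) in the normal library, a log2 ratio of 1.16 (0.60 to 1.73, FDR 2.21e-04), and lost its call under all 4 rescalings. An entry described as LYST-like, which the reference table names WDFY3 after an adaptor for aggregates in autophagy, had 279 reads (4.10 RPKM) against 98 reads (1.41 RPKM). Its log2 ratio was 1.54 (1.21 to 1.87, FDR 7.62e-21) and it lost the call under the length correction alone.

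The most abundant members of this group were not called. LAPTM4A, a transporter-like protein of late endosomes and lysosomes, had 984 reads (106 RPKM) against 938 reads (99.3 RPKM), a log2 ratio of 0.10 (-0.03 to 0.23) that turned negative under each rescaling. LAPTM4B, a relative that binds ceramide, had 538 reads (49.6 RPKM) against 713 reads (64.3 RPKM), a log2 ratio of -0.38 (-0.54 to -0.21). The BLOC-1 subunit 1 entry, of the complex that sorts cargo to lysosome-related organelles, had 370 reads (106 RPKM) against 500 reads (140 RPKM), a log2 ratio of -0.40 (-0.60 to -0.21). RILP, which tethers lysosomes to the motor dynein, had 112 against 178 reads (-0.64, -0.98 to -0.30) and was called lower under TMM factors alone.

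Coverage of the transcripts is given as a description. It rises with the number of reads of a gene, so it is no independent check on the calls. Over the 61 members with 10 or more reads in each library the median share of the transcript covered was 81.9% (abnormal) and 73.7% (normal). For the 13 of them that were called higher it was 75.5% against 43.1%. Of these 13 genes 11 had reads over more of their length in the abnormal library, and RETREG1 (65.05% against 69.14%) and CTSL1 did not.

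Genes of the same pathways with other descriptions were taken from 6 lists of symbols, which gave 83 further entries (RPTOR, MITF and CERS1 with 2 each). Of these 12 were called higher (14.5%, near the 12.0% of all genes) and 3 lower, and the median log2 ratio was 0.62. Of the 65 with at least 10 reads in both libraries 11 were called higher, not above the 18.2% of all genes of that depth. The counts of single lists below rest on few genes each and are given as a description. In the autophagy list 3 of 19 were called higher (15.8%, near the 12.0% of all genes) and 0 lower. RPKM was higher for 18, where 66.0% of all genes were higher. ULK1, the kinase that ATG13 serves, had 434 reads (19.6 RPKM) in the abnormal and 101 reads (4.47 RPKM) in the normal library, a log2 ratio of 2.13 (1.82 to 2.45, FDR 4.44e-50). ULK2 (200 against 69 reads, 1.57) was also called under all 4 rescalings, and MAP1LC3B (470 against 226 reads, 1.09) under none of them. The list's median was 0.73, and 0.37, 0.34, 0.48 and 0.30 after rescaling.

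Regulators of lysosomal genes and of nutrient sensing, 20 entries of 18 genes, held 5 of 20 called higher (25%, against 12.0% of all genes) and 0 lower, with a median of 0.81. With at least 10 reads in both libraries it was 4 of 17, beside 18.2% of all genes of that depth. After each rescaling 4 of the 20 were called higher, where between 5.99% and 7.87% of all genes were. The list's median became 0.45, 0.41, 0.56 and 0.53. FNIP1, a partner of folliculin at the lysosome, had 184 reads (7.75 RPKM) in the abnormal and 28 reads (1.15 RPKM) in the normal library, a log2 ratio of 2.75 (2.18 to 3.32, FDR 1.10e-28). SESN1 (1065 against 261 reads, 2.06), an inhibitor of mTORC1, and the transcription factor TFE3 (94 against 31 reads, 1.63) were also called. Its relative TFEB had 191 against 133 reads (0.55, 0.23 to 0.87) and was not called. An Ensembl entry of RPTOR was called at 42 against 9 reads (2.25), while a second RPTOR entry with 86 against 49 reads (0.84) was not.

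Sorting to the lysosome held 4 of 9 genes called higher (against 12.0% of all genes) and 0 lower. All 9 had a higher RPKM, as 66.0% of all genes did, though NAGPA had only 2 against 1 reads. With at least 10 reads in both libraries 4 of 8 were called higher, beside 18.2% of all genes of that depth. After the rescalings 2, 2, 2 and 1 of the 9 were called higher, where between 5.99% and 7.87% of all genes were. The list's median of 1.03 became 0.67, 0.64, 0.78 and 0.76. IGF2R, the receptor that carries new hydrolases to the lysosome and binds IGF2, had 294 reads (6.18 RPKM) in the abnormal and 67 reads (1.38 RPKM) in the normal library, a log2 ratio of 2.16 (1.78 to 2.55, FDR 1.22e-34). M6PR, the smaller receptor of that kind, had 193 against 88 reads (1.16) and lost its call under the 4 rescalings.

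Lysosomal enzymes under other names had 0 of 15 genes called higher and 1 lower, beside 12.0% and 1.45% of all genes. RPKM was higher for 6, where 66.0% of all genes were higher, and the list's median was -0.41. Under each rescaling 3 were called lower (GUSB, AGA and SCPEP1), and the median became -0.77, -0.80, -0.66 and -0.67. GUSB, the beta-glucuronidase, had 103 reads (7.13 RPKM) in the abnormal and 231 reads (15.7 RPKM) in the normal library, a log2 ratio of -1.13 (-1.47 to -0.80, FDR 5.74e-11). The lysosomal membrane, lipid export and ion channel list held 0 of 10 called in either direction by the Audic-Claverie test, and its median of 0.33 moved to -0.03, -0.06, 0.09 and -0.09 on rescaling. Of 10 entries of sphingolipid enzymes 0 were called higher and 2 lower. Both are ceramide synthases, of which CERS1, the form typical of muscle and brain, had 41 reads (4.39 RPKM) against 94 reads (9.86 RPKM), a log2 ratio of -1.17 (-1.69 to -0.64, FDR 3.99e-05). CERS4 had 47 against 107 reads (-1.16). A second CERS1 entry had 10 against 27 reads (-1.40) and was not called. The list's median was nevertheless 0.65 (0.29, 0.25, 0.40 and 0.40 after rescaling), opposite in sign to its calls, since 7 of its entries were higher.

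**Figure D4:**
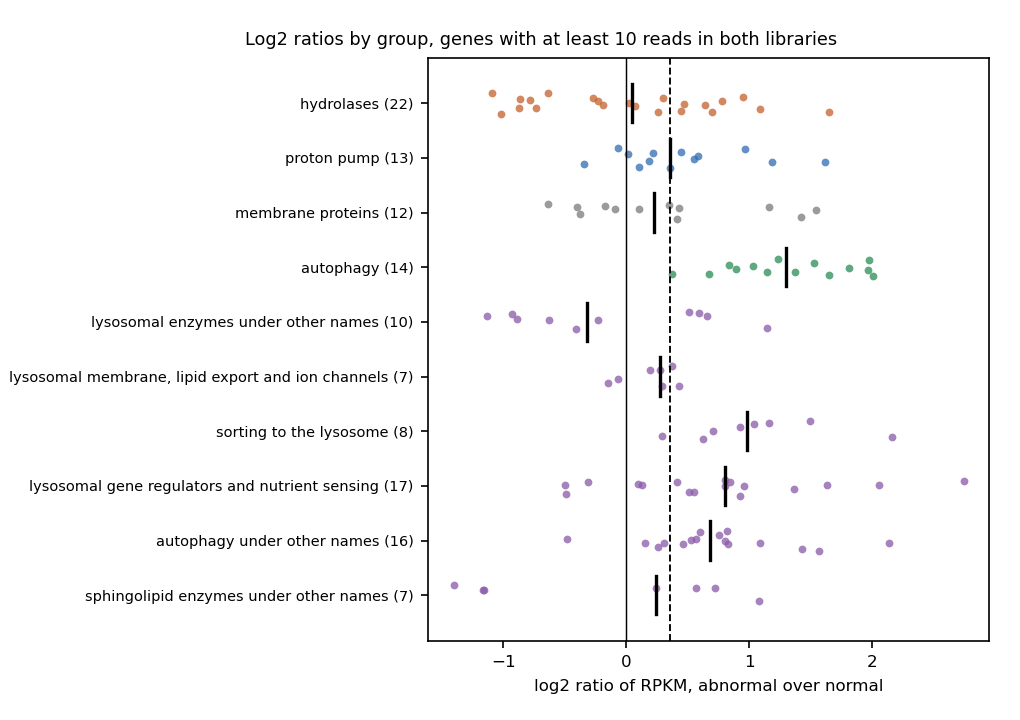
Log2 ratio of RPKM (abnormal over normal library, horizontal) of each gene with at least 10 reads in both libraries, by group of members (upper 4 rows) and by list of further pathway genes (lower 6 rows), with the number of genes in brackets. Each point is 1 gene, spread vertically for sight only; thick bars are medians, the dashed line is the median of all genes of that depth (0.36) and the solid line is 0. The 14 autophagy members all lie to the right of the dashed line, with a median of 1.30, and the hydrolases lie on both sides with a median of 0.05. The autophagy genes under other names also lie on both sides of the dashed line.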

How the data were processed

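Each pool of biceps femoris RNA (abnormal cloned, normal cloned, as the sample titles name them) gave 1 library. Per the labels and methods, oligo(dT) beads selected the mRNA and random hexamers primed the cDNA; strand is not given in the sources used here. The authors discarded adaptor-containing and poor-quality reads and mapped the rest with SOAPaligner/soap2 (at most 2 mismatches). Their deposited tables hold, per Sscrofa9 transcript, the count of unique reads (not normalized), the RPKM, the transcript length and the percent of the transcript covered. Recomputed RPKM matched to within 3.35e-08, so RPKM here rests on the same counts. Genes absent from a table were taken as 0 reads. A floor of 3 reads corresponds to 0.470 and 0.460 RPM; intervals (95% Wilson, on the fraction of a gene's reads that is abnormal) and floors cover counting error only.

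Audic-Claverie probabilities were two-sided by doubling, with Benjamini-Hochberg adjustment over 12535 genes and an RPKM of 0 set to 0.001 for log2 ratios. Smaller values than 1e-300 are printed at that limit. DESeq2 and the edgeR quasi-likelihood test need replicates and could not be fitted, and the test therefore says nothing of variation between piglets. The alternatives were 4 rescalings, a pseudocount of 1, a minimum of 10 reads in both libraries, Fisher's test, edgeR's exact test (assumed variation 0.4 or 0.2), a log2 ratio of at least 2 and an FDR of at most 0.05. Scripts were tested on simulated data. Reference symbols came from a RefSeq table of Sscrofa11.1, matched by identifier for 72 of 83 members, and its coordinates were not used.

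Members, groups and lists were chosen with earlier results of these data known. Named genes were SMPDL3A, and in each group the called members with at least 10 reads in either library (at most 6 in each direction) and the 3 with the highest mean RPKM, and in each list the called gene with the largest ratio in each direction. Other genes given were chosen after their values were seen, mostly as relatives. The values of 1 member are not reported here. The software was Python 3.11.15, numpy 2.4.6, pandas 2.3.3, scipy 1.17.1, matplotlib 3.10.9, R 4.3.3 and edgeR 4.0.16.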

Additional observations from a re-analysis of the deposited data

How the results depend on the processing

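Each group is 1 pool, so variation between piglets is not measured, and calls in genes with few reads rest on counting error alone. No paired analysis was possible because each group has 1 library without a replicate number, and no library could be left out. Of the 23 named genes that were called, 19 kept the call with the median ratio, TMM, totals without mitochondrial transcripts and a pseudocount of 1, 18 with the length correction, 22 with Fisher's exact test, 9 with a log2 ratio of at least 2, 7 and 1 with edgeR at an assumed variation of 0.2 and 0.4, and 0 reversed. Members called higher (17) were 12, 12 and 12 under the first 3 rescalings and 11 with the length correction, 5 at a log2 ratio of at least 2, and 4 and 1 with edgeR (0.2, 0.4). SMPDL3A, SQSTM1, SGMS1 and ATP6V1C2 are the 4. Members called lower (2) were 5, 7, 5 and 6 under the 4 rescalings in the same order, 1 with the pseudocount, the minimum of 10 reads, Fisher's test or a log2 ratio of at least 2, and 0 with edgeR at either value. The median log2 ratio of the members (0.45) was 0.086, 0.052, 0.20 and 0.086 on rescaling and 0.30 with the pseudocount. Pathway genes called higher (12) were 7 with the length correction, 5 at a log2 ratio of at least 2, and 4 and 0 with edgeR; those called lower (3) were 5 under each rescaling and 0 with edgeR or a log2 ratio of at least 2. The median of all genes turned to -0.0067 (median ratio) and -0.040 (TMM), that of the hydrolases to -0.31, -0.34, -0.19 and -0.24, and that of the membrane proteins to -0.014, -0.047 and, with the length correction, -0.067. LAPTM4A turned to -0.26, -0.29, -0.15 and -0.19, ATP6V1E1 to -0.14, -0.17, -0.027 and -0.13, and PSAP to -0.056 with the length correction. The rescalings lower the log2 ratio of a gene with abnormal reads by construction, the minimum of reads and stricter thresholds leave fewer genes, and edgeR adds assumed variation. The cause of the other differences was not tested.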

Other observations

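The ATG8 family, the small ubiquitin-like proteins that are attached to the autophagosome membrane and that receptors such as SQSTM1 bind, did not meet the description rule. MAP1LC3A and MAP1LC3B were in the autophagy list above. The other genes given here were looked up by symbol after the other values were seen. The members of the family differed among themselves. GABARAPL1 had 209 reads (28.6 RPKM) in the abnormal and 56 reads (7.51 RPKM) in the normal library, a log2 ratio of 1.93 (95% interval 1.51 to 2.35, FDR 2.17e-21), and was called under all 4 rescalings. MAP1LC3A had 1421 reads (227 RPKM) against 861 reads (135 RPKM), a log2 ratio of 0.75 (0.63 to 0.88), below the fold threshold. MAP1LC3B, at 470 against 226 reads (1.09, 0.86 to 1.32), was called, but under none of the 4 rescalings. GABARAP, the family member with the highest RPKM, had 2416 reads (413 RPKM) against 2958 reads (495 RPKM), a log2 ratio of -0.26 (-0.34 to -0.18). GABARAPL2 had 310 against 286 reads (0.15, -0.08 to 0.38). The proteases that prepare these proteins were not called, with ATG4A at 136 against 112 reads, ATG4D at 296 against 241 reads and ATG4C at 6 against 3 reads.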
